A study of Homo sapiens with 12 samples.

Results

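Metallothioneins and the zinc exporter SLC30A1 were followed through 12 RNA libraries of Huh7, a widely used cell line that was established from a human hepatocellular carcinoma. The set was chosen by gene symbol: the 9 metallothionein genes MT1A, MT1B, MT1E, MT1F, MT1G, MT1H, MT1M, MT1X and MT2A, and SLC30A1, which makes 10 of the 59191 features in the deposited table. The libraries fall into 4 groups of 3: cells given disulfiram and thalidomide together (combination), disulfiram alone, thalidomide alone, and a control whose columns are named DMSO, a common drug solvent. All groups share the same cell line, so every value describes Huh7 and no other hepatoma line. The sources used here give no doses with units, no exposure times and no read depth. No label says that the 3 libraries of a group came from separate cultures, so the p-values measure only the spread between libraries, which may be technical.

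Metallothioneins are small, cysteine-rich proteins that bind zinc and copper in the cytosol, and the liver is among the tissues where they are most induced by metals. MTF1, a zinc-sensing transcription factor, binds short promoter sequences called metal response elements, from which it drives metallothionein genes and SLC30A1. SLC30A1 (ZnT1) carries zinc out of the cell across the plasma membrane. Disulfiram inhibits aldehyde dehydrogenases and is metabolised to a dithiocarbamate that binds copper. Thalidomide binds cereblon, through which a ubiquitin ligase recognises its substrates.

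The 9 metallothionein genes lay in a cluster of 76.0 kb on chromosome 16 (hg38, GENCODE 29, all annotated as protein-coding). In map order they were MT2A (ENSG00000125148, chr16:56608199-56609497), MT1E (ENSG00000169715, chr16:56625475-56627112), MT1M (ENSG00000205364, chr16:56632233-56633986), MT1A (ENSG00000205362, chr16:56638666-56640087) and MT1B (ENSG00000169688, chr16:56651899-56653204). They were followed by MT1F (ENSG00000198417, chr16:56657694-56660698), MT1G (ENSG00000125144, chr16:56666731-56668065), MT1H (ENSG00000205358, chr16:56669814-56671129) and MT1X (ENSG00000187193, chr16:56682424-56684196). MT1G was the only 1 of the 9 on the minus strand. SLC30A1 (ENSG00000170385) lay on the minus strand of chromosome 1, at chr1:211571568-211578742.

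Promoter sequence was at hand for 5 of the 10 members (MT2A, MT1B, MT1H, MT1X and SLC30A1) from RefSeq, build GRCh38.p14. The 250 bases before each gene's RefSeq start were searched on both strands for the core of the metal response element, TGCACNC or TGCGCNC. RefSeq starts can differ from the GENCODE positions given above. The SLC30A1 window stops at chr1:211579162, short of the gene's GENCODE start at chr1:211578742 (minus strand). MT1H held 8 such matches, MT2A 7, MT1X 4, MT1B 3 and SLC30A1 1. Among 35116 promoters searched in the same way, 24.8% held at least 1 match, 1.58% at least 3 and 0.370% at least 4. The windows printed show how dense the element is before 3 metallothionein genes whose levels behaved differently, and before the exporter. Each reads 5′ to 3′ on the gene's own strand, with matches in capitals, and a match on the opposite strand appears as GNGTGCA or GNGCGCA. They cover chr16:56651636-56651885 (MT1B, plus strand), chr16:56669564-56669813 (MT1H, plus strand), chr16:56682220-56682423 (MT1X, plus strand, 204 bases that end 47 bases before the RefSeq start) and chr1:211579162-211579411 (SLC30A1, minus strand).
MT1B: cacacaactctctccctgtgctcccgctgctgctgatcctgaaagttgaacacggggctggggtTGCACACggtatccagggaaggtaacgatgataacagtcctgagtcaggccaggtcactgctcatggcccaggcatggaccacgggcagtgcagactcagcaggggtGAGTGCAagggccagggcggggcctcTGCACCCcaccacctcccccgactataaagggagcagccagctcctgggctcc
MT1H: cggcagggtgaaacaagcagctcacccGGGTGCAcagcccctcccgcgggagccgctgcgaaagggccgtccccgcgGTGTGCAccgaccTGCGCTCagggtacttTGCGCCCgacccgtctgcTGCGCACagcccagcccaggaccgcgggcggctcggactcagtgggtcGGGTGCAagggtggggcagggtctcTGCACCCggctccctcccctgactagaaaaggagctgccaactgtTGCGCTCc
MT1X: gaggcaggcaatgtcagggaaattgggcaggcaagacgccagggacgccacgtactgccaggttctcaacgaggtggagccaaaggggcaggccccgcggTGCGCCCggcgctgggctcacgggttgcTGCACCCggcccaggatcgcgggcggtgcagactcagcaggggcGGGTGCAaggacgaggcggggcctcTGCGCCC
SLC30A1: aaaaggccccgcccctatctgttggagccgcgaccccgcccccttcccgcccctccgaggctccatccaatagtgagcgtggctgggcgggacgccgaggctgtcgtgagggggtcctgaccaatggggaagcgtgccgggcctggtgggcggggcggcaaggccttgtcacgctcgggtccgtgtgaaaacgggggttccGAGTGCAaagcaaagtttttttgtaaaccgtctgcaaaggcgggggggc

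The same windows were searched for the core of the antioxidant response element, TGACNNNGC, and of the heat shock element, GAANNTTC. MT2A, MT1B, MT1X and SLC30A1 each held 1 antioxidant core and MT1H held 0, against 10.9% of all promoters with at least 1. None of the 5 windows held a heat shock core, which 5.78% of all promoters held. No match of a motif overlapped a match of another. A match describes the letters in the window and says nothing of binding.

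**Figure D1:**
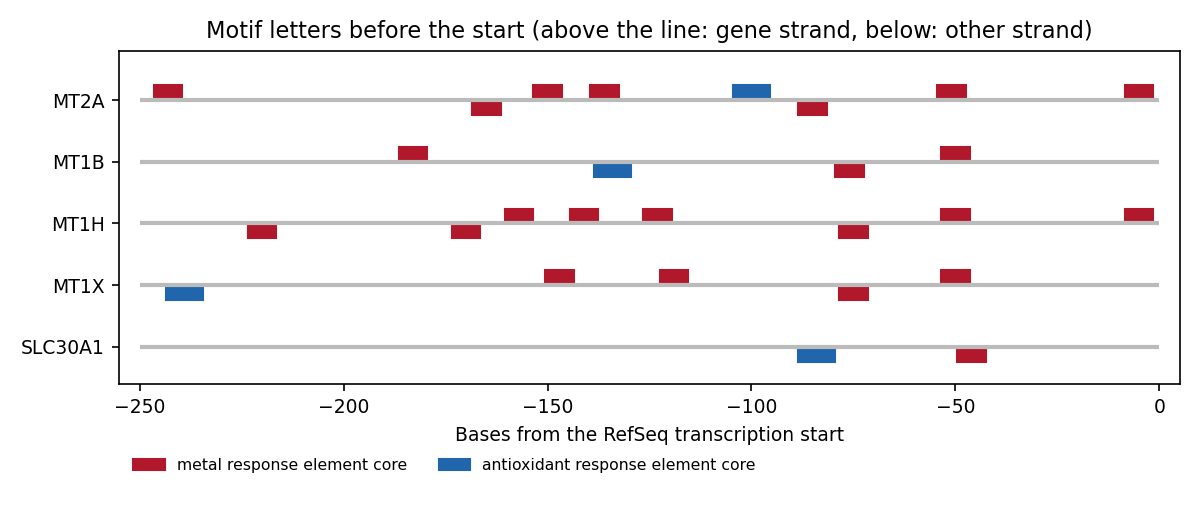
Positions of motif matches in the 250 bases before the RefSeq start of the 5 members with a promoter sequence, with the x axis in bases from that start and 1 line per gene. MT1H (8) and MT2A (7) hold the most metal response element cores and SLC30A1 holds 1.

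The measurements are TPM, a length-scaled share of all transcripts in a library, in which every library sums to the same total. Between 13693 and 15038 genes reached 1 TPM in a library. All 10 hepatocyte and hepatoma markers were present, and their summed level ran from 3704 to 4823 TPM in the combination libraries, 4112 to 4161 in disulfiram, 5512 to 7667 in thalidomide and 4327 to 6870 in control. Of 4 endothelial markers 3 (VWF, CDH5 and KDR) were below 1 TPM throughout, and the list's sum was 3.83 to 5.43 TPM in combination, 3.52 to 7.42 in disulfiram, 1.66 to 2.51 in thalidomide and 0.79 to 1.55 in control libraries. PECAM1 was the 1 endothelial marker with a group mean above 1 TPM, and PECAM1 and LYZ rose while TTR fell in combination and in disulfiram against control. Of 6 leukocyte markers PTPRC, CD3E, CD79A and CSF1R were below 1 TPM throughout, and the list's sum was 88.1 to 96.2 TPM in combination, 64.9 to 131.5 in disulfiram, 118.6 to 169.7 in thalidomide and 105.2 to 174.5 in control libraries. Of 6 fibroblast and stellate markers ACTA2 and DCN were below 1 TPM throughout, and the sum was 60.1 to 85.6 TPM in combination, 56.2 to 71.0 in disulfiram, 55.1 to 84.2 in thalidomide and 71.0 to 83.5 in control libraries. Most of the leukocyte sum was CD14, which averaged 79.3 TPM in combination, 81.9 in disulfiram, 141.9 in thalidomide and 131.8 in control libraries. The part of these markers in the results was not tested. Combination library 2 and disulfiram library 2 stood apart from their groups in the GC content of the genes that deviated (Spearman's rank correlation of deviation with GC content over 15042 genes 0.66 and 0.60, against −0.59 to −0.30 in the other 4 libraries of those groups). In thalidomide, library 1 had a rank correlation of 0.48 against −0.06 and −0.39 in the other libraries.

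Disulfiram, alone or with thalidomide, was accompanied by far more metallothionein transcript. The 9 genes together reached 2395, 2036 and 2389 TPM in the combination libraries and 4152, 2526 and 2414 TPM in the disulfiram libraries. They held 753.3, 489.5 and 710.5 TPM in the thalidomide libraries and 569.8, 834.5 and 868.6 TPM in the control libraries. All 6 libraries with disulfiram lay above all 6 without it, and the thalidomide and control ranges overlapped. The mean sum was 2273 ± 205 TPM in combination, 3031 ± 973 in disulfiram, 651 ± 142 in thalidomide and 758 ± 164 in control (SD, n = 3 each), that is 3.0, 4.0 and 0.859 times the control mean. Metallothioneins thus made up 0.227% of all TPM in combination, 0.303% in disulfiram, 0.0651% in thalidomide and 0.0758% in control. With a single value per gene in each library, more RNA per cell and more cells that express the genes cannot be told apart.

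Of the 8 members with a TPM of at least 1 in all 3 control libraries, 5 rose in the combination against control (MT1M, MT1G, MT1A, MT2A and MT1F), and none fell. Over all 15352 genes tested, 18.4% rose and 6.70% fell in that comparison (limma, Benjamini-Hochberg adjusted p below 0.05 over all genes). In disulfiram against control 6 of the 8 rose, the same 5 and MT1E, and none fell, beside 8.73% of all genes that rose and 4.52% that fell. The median difference of the 8 on the log2(TPM + 1) scale was 1.15 in the combination and 1.53 in disulfiram, against medians of 0.20 and 0.09 over all genes tested. Without combination library 2, 7 of the 8 rose in combination, MT1E and SLC30A1 being added, beside 3864 of the 15352 genes tested that rose and 1221 that fell. Without combination library 1 or 3 the count stayed at 5 of the 8, beside 1105 and 934 genes that rose. Without disulfiram library 2, 6 of the 8 rose in disulfiram, beside 1348 genes that rose and 640 that fell. The offset of 1 makes differences of low genes smaller than the ratio of their means. Both comparisons use the same 3 control libraries. All 3 libraries lay above all 3 controls for 7 of the 8 in combination (33.9% of all genes) and for 6 of the 8 in disulfiram (21.5% of all genes). MT1B and MT1H are left out of these counts, since they passed the filter on low values only through libraries with disulfiram.

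**Figure D2:**
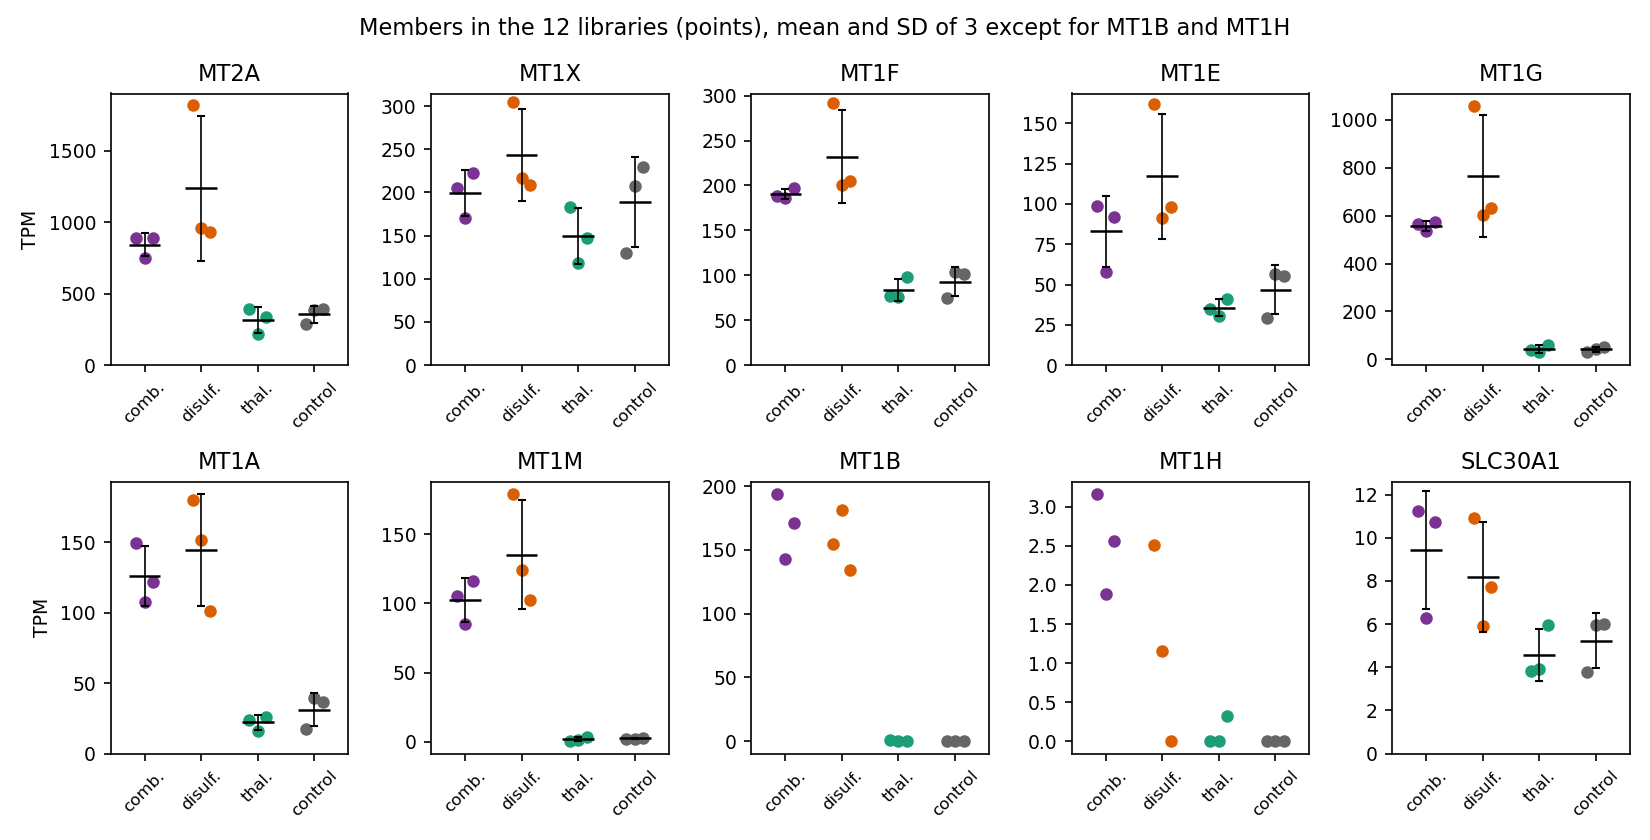
TPM of each member in every library (points), by group, with mean and SD of 3 libraries except for MT1B and MT1H. MT1G, MT1M, MT2A, MT1A, MT1F and MT1E separate the libraries with disulfiram from those without it, and the MT1X and SLC30A1 ranges overlap. MT1B and MT1H passed the filter on low values only through libraries with disulfiram.

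MT1G and MT1M, both frequently silenced in hepatocellular carcinoma, had the largest log2 differences among the 8 members that reached 1 TPM in every control library. MT1G had 563.5, 534.3 and 574.1 TPM in combination, 1058.5, 601.6 and 633.4 in disulfiram, 40.3, 28.6 and 58.8 in thalidomide and 32.2, 41.2 and 52.1 in control libraries. Every library with disulfiram lay far above every library without it. MT1G was 3.73 ± 0.26 higher in combination (log2 difference ± SE, limma adjusted p = 1.42e-05) and 4.14 ± 0.26 higher in disulfiram (adjusted p = 4.38e-06) than in control, or 13.3 and 18.3 times the control mean TPM. MT1M had 105.7, 85.4 and 116.5 TPM in combination, 178.9, 124.4 and 102.1 in disulfiram, 0.75, 1.07 and 3.53 in thalidomide and 1.85, 2.15 and 2.94 in control libraries. It was nearly silent without disulfiram and reached about the level of MT1A with it. MT1M was 4.97 ± 0.31 higher in combination (limma adjusted p = 4.74e-06) and 5.34 ± 0.31 higher in disulfiram (adjusted p = 2.1e-06) than in control, or 44.3 and 58.4 times the control mean TPM.

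MT2A, the isoform most abundant in many human tissues, was also the most abundant member here in every group. It had 887.2, 749.8 and 891.4 TPM in combination, 1819, 956.8 and 931.9 in disulfiram, 392.5, 219.1 and 335.7 in thalidomide and 284.6, 385.4 and 391.3 in control libraries. The 3 disulfiram-only libraries were the highest and no library with disulfiram overlapped those without it. MT2A rose by 1.26 ± 0.26 in combination (limma adjusted p = 0.00699) and 1.74 ± 0.26 in disulfiram (adjusted p = 0.00154). With no filter on low values the MT2A difference in combination no longer passed (adjusted p = 0.0672).

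MT1A, MT1F and MT1E are further zinc- and copper-binding isoforms of the cluster. MT1A had 149.1, 107.2 and 121.4 TPM in combination, 180.0, 151.8 and 101.3 in disulfiram, 23.7, 16.3 and 26.2 in thalidomide and 17.7, 39.3 and 36.3 in control libraries. The disulfiram-containing groups did not overlap the others. MT1A rose by 2.05 ± 0.29 in combination (limma adjusted p = 0.00137) and by 2.22 ± 0.29 in disulfiram (adjusted p = 0.000739). MT1F had 188.3, 186.3 and 196.8 TPM in combination, 291.4, 200.2 and 205.0 in disulfiram, 77.4, 75.5 and 97.6 in thalidomide and 74.4, 103.2 and 101.5 in control libraries. Again no library with disulfiram came within the range of those without it. MT1F rose by 1.04 ± 0.16 in combination (limma adjusted p = 0.00189) and by 1.30 ± 0.16 in disulfiram (adjusted p = 0.000485). MT1E had 99.0, 57.9 and 92.0 TPM in combination, 161.9, 91.3 and 98.0 in disulfiram, 34.9, 30.6 and 41.1 in thalidomide and 29.3, 56.3 and 55.1 in control libraries. The lowest combination library stood just above the highest control library. MT1E rose by 1.31 ± 0.28 in disulfiram (limma adjusted p = 0.0111, and 0.103 with no filter on low values), while in combination its difference of 0.83 ± 0.28 (95% interval 0.21 to 1.45) missed the threshold at an adjusted p of 0.0508. Without combination library 2 the MT1E difference in combination was 1.07 (adjusted p = 0.0188), and without both libraries that stood apart in GC content the adjusted p was 0.0154. Under all alternatives it ran from 0.53 to 1.07 and passed in only 4 of 17 (limma adjusted p up to 0.272).

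MT1X was the member of the cluster for which no difference from control passed. It had 205.5, 170.6 and 222.9 TPM in combination, 305.2, 217.0 and 208.2 in disulfiram, 183.0, 118.3 and 147.2 in thalidomide and 129.8, 207.0 and 229.3 in control libraries. Control library 1 was the lowest control, and the other two controls lay among the libraries with disulfiram. The MT1X difference was 0.11 ± 0.22 in combination (95% interval −0.37 to 0.60, limma adjusted p = 0.717) and 0.39 ± 0.22 in disulfiram (95% interval −0.10 to 0.87, adjusted p = 0.290). The sign in combination turned under median-of-ratios scaling (−0.12) and without control library 1 (−0.13). MT1X was the second most abundant member in control, and its promoter window holds 4 metal response element cores.

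MT1B and MT1H were listed at 0 in all 3 control libraries. MT1B had 193.6, 142.9 and 170.8 TPM in combination, 155.0, 181.6 and 134.2 in disulfiram and 0.78, 0 and 0 in thalidomide libraries. With disulfiram it stood at the level of MT1A and MT1M, and no fold can be given against a group listed at 0. MT1H had 3.16, 1.89 and 2.56 TPM in combination, 2.51, 1.15 and 0 in disulfiram and 0, 0 and 0.32 in thalidomide libraries. Its level stayed below that of SLC30A1 in every library with disulfiram. Its promoter window holds 8 metal response element cores, the most of the 5 searched. Of the stretches of 50 bases in MT1B's annotated transcripts, 81.0% occur in no other gene and 19.0% also occur in AC026461.2, a locus listed at 0 in all 12 libraries. That share of unique stretches was 83.5% for MT1G, 84.2% for MT1H, 81.7% for MT1X and 90.1 to 98.8% for the other 5 metallothioneins. How the authors assigned reads shared between these copies is not stated, so levels of single isoforms are less certain than their sum.

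SLC30A1 was low in every group. It had 11.2, 6.30 and 10.8 TPM in combination, 10.9, 5.92 and 7.73 in disulfiram, 3.82, 3.93 and 5.94 in thalidomide and 3.76, 5.96 and 5.99 in control libraries. All 3 combination libraries lay above all 3 controls, and disulfiram library 2 lay within the control range. The difference from control was 0.73 ± 0.26 in combination (95% interval 0.16 to 1.29, limma adjusted p = 0.0577) and 0.55 ± 0.26 in disulfiram (95% interval −0.02 to 1.11, adjusted p = 0.193), neither past the threshold. Without combination library 2 the SLC30A1 difference in combination was 0.97 (adjusted p = 0.0165), and without both libraries that stood apart in GC content its adjusted p was 0.0089. The SLC30A1 difference in combination passed in only 3 of 17 alternatives (limma adjusted p up to 0.346). With a correction for GC content the same difference was 0.23. SLC30A1's longest transcript has a GC content of 38.0%, against 50.5 to 62.5% for the metallothioneins.

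**Figure D3:**
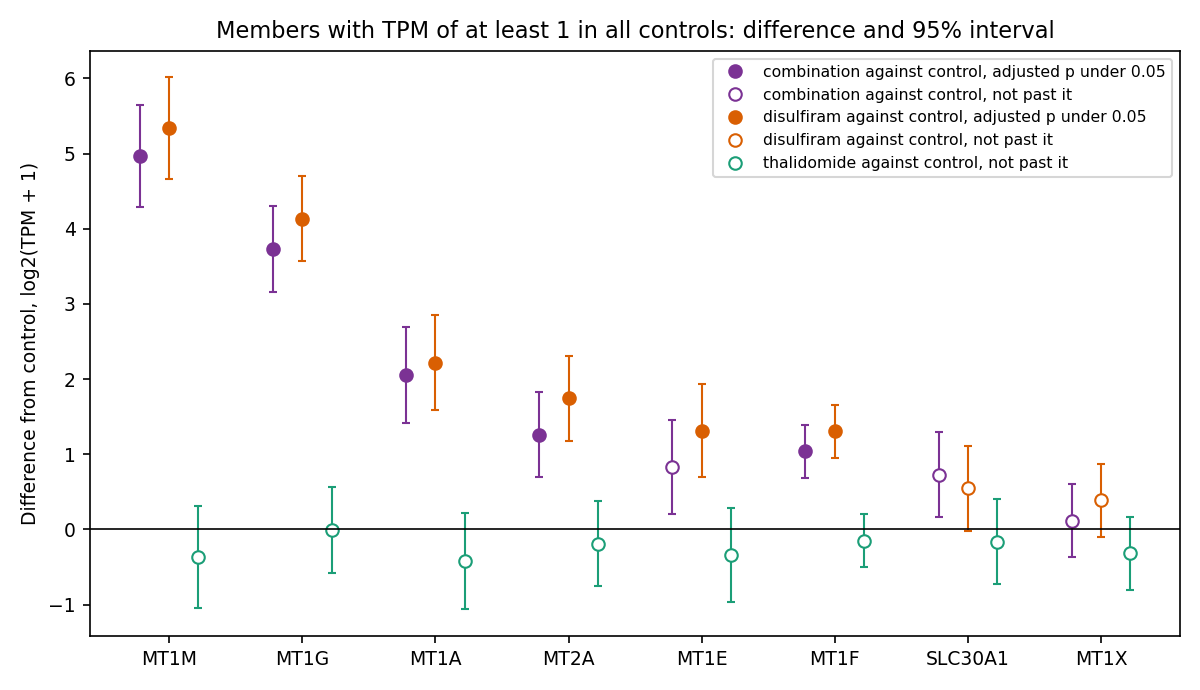
Log2(TPM + 1) difference from control with its 95% interval, by gene, for the combination, disulfiram and thalidomide. In thalidomide all intervals include 0. MT1M and MT1G have the largest differences in combination and in disulfiram among the members expressed in control.

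Thalidomide alone was not accompanied by a detectable change. None of the 8 members passed against control, at an unadjusted p below 0.05 either, and 0% of all genes did after adjustment (873 had an unadjusted p below 0.05). The estimates ran from −0.42 (MT1A, 95% interval −1.06 to 0.21) to −0.01 (MT1G, 95% interval −0.58 to 0.56), with a median of −0.25 beside −0.03 over all genes. The libraries of both groups overlapped for all 8, where 3.91% of all genes had every thalidomide library above and 6.32% every one below the controls. The intervals do not show that the levels were the same: for MT1M the interval reached from −1.05 to 0.31.

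Adding thalidomide to disulfiram was not accompanied by a difference past the threshold either. None of the 8 members passed in the combination against disulfiram, at an unadjusted p below 0.05 either, beside 0.00651% of all genes that did (2631 genes had an unadjusted p below 0.05). Without combination library 2, 46 genes rose and 8 fell in that comparison, still none of the 8 members. The largest among the 8 were MT2A at −0.48 (95% interval −1.05 to 0.08, limma adjusted p = 0.338) and MT1E at −0.48 (95% interval −1.10 to 0.14). MT2A, MT1G and MT1F were lower in all 3 combination libraries than in any disulfiram library, beside 6.54% of all genes with that order and 9.69% with the opposite one, which none of the 8 had. The MT1B difference was 0.11 (95% interval −0.35 to 0.56) and that of SLC30A1 0.18 (95% interval −0.38 to 0.74). MT1H, low in both groups, differed by 0.83 (95% interval 0.06 to 1.61, limma adjusted p = 0.276). Disulfiram library 1 carried the highest value of its group for 9 of the 10 members (all but MT1B), and combination library 2 the lowest of its group for all 10. The interaction, which asks whether the combination differed from the sum of both single-drug differences, passed for none of the 8 (log2 −0.40 to 0.34, limma adjusted p 0.630 to 0.999) nor for any gene (0%), with 1580 genes at an unadjusted p below 0.05.

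Set against thalidomide, 7 of the 8 members rose in the combination, all but MT1X, beside 25.0% of all genes that rose and 7.24% that fell, and 7 of the 8 rose in disulfiram, all but SLC30A1, beside 11.9% of all genes that rose and 5.20% that fell. No library of the group with disulfiram came down to the thalidomide range for 7 of the 8 in combination (33.9% of all genes) and for 7 of the 8 in disulfiram (22.1% of all genes). The SLC30A1 difference of 0.89 ± 0.26 between combination and thalidomide (limma adjusted p = 0.0238) was 0.33 with the correction for GC content (adjusted p = 0.159). The MT1X difference between disulfiram and thalidomide was 0.70 ± 0.22 (limma adjusted p = 0.05, just below the threshold), and it held under only 3 of 17 alternatives. Leaving out disulfiram library 1, 2 or 3 or thalidomide library 2 or 3 ended the MT1X call (adjusted p up to 0.183), and so did no filter on low values (adjusted p = 0.292). The SLC30A1 call against thalidomide in combination held under only 8 of 17 alternatives. It was lost without combination library 1 or 3 or thalidomide library 1 or 2 (adjusted p up to 0.0948). No filter on low values (adjusted p = 0.145), median-of-ratios scaling (0.0509) and quantile normalization (0.0654) also ended it. The MT1E call in that comparison was lost without combination library 1 (adjusted p = 0.0519) and with no filter on low values (0.098). In disulfiram against thalidomide SLC30A1 differed by 0.71 ± 0.26 (adjusted p = 0.0812), and by 0.90 (adjusted p = 0.0424) without disulfiram library 2. Medians of the 8 were 1.32 and 1.79, against 0.22 and 0.12 over all genes.

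The metallothionein pool also had another makeup where disulfiram was given. MT1G made up 24.6% ± 1.44 of the 9 genes' TPM in combination, 25.2% ± 1.24 in disulfiram, 6.49% ± 1.57 in thalidomide and 5.53% ± 0.544 in control (SD, n = 3 each). MT1B made up 7.42% in combination, 5.49% in disulfiram, 0.0345% in thalidomide and 0% in control. MT1M made up 4.50% ± 0.350 in combination, 4.49% ± 0.380 in disulfiram, 0.272% ± 0.204 in thalidomide and 0.307% ± 0.0432 in control. These isoforms took a larger part of the pool, and MT2A, MT1X, MT1F and MT1E a smaller one. MT1F held 8.42% in combination, 7.81% in disulfiram, 13.1% in thalidomide and 12.4% in control. MT1E held 3.61% in combination, 3.86% in disulfiram, 5.56% in thalidomide and 6.08% in control. MT2A held 37.1% ± 0.248 in combination, 40.1% ± 3.23 in disulfiram, 48.0% ± 3.73 in thalidomide and 47.1% ± 2.56 in control. MT1X held 8.76% ± 0.504 in combination, 8.19% ± 0.727 in disulfiram, 23.1% ± 2.03 in thalidomide and 24.7% ± 1.82 in control. Of the added TPM over control, MT1G accounted for 34.0% in combination and 31.8% in disulfiram, MT2A for 32.3% and 38.8%, and MT1B for 11.2% and 6.90%. As shares of 1 pool, these percentages move against each other, and they are given with no test.

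**Figure D4:**
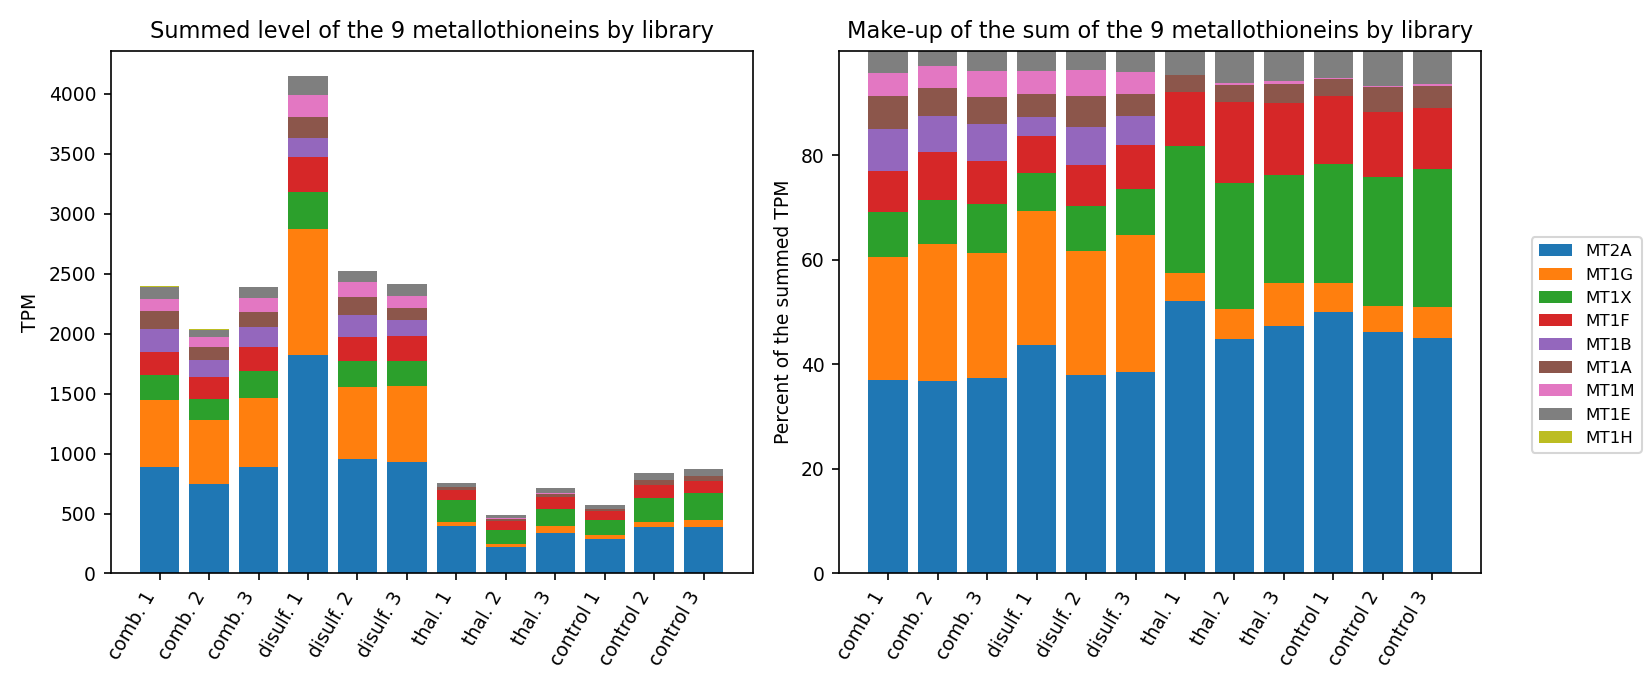
Summed TPM of the 9 metallothioneins in each library (y axis), stacked by gene, with the libraries of the combination, disulfiram, thalidomide and control from left to right. The 6 libraries with disulfiram reach 2036 to 4152 TPM, and the other 6 lie between 489.5 and 868.6 TPM.

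The order of levels, on the length-scaled TPM scale, also differed. In combination and disulfiram libraries the mean order began with MT2A, MT1G, MT1X and MT1F. MT2A and MT1G had separate ranges in combination and overlapped in disulfiram, and MT1X and MT1F overlapped in both. MT1B, MT1A, MT1M and MT1E followed, each overlapping its neighbour in the order, with SLC30A1 and MT1H last. In control libraries MT2A was followed by MT1X and MT1F with separate ranges, then by MT1E, MT1G and MT1A, each overlapping its neighbour, then by SLC30A1 and MT1M, with MT1B and MT1H at 0.

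Other metallothionein loci, mostly pseudogenes, are given with the same limit, that the authors' handling of reads shared between copies is not stated. The share of stretches of 50 bases found in no other gene was 95.6% for MT1L, 91.5% for MT1JP and 100% for MT1DP. Of 11 such loci in a list, 3 passed the filter on low values, MT1DP and MT1JP only through libraries with disulfiram. MT1L was the 1 locus that reached 1 TPM without disulfiram as well. MT1L had 84.5, 65.5 and 76.4 TPM in combination, 104.7, 70.3 and 76.3 in disulfiram, 7.19, 11.4 and 5.02 in thalidomide and 6.44, 7.43 and 11.4 in control libraries. The groups with and without disulfiram did not overlap. MT1L rose by 3.05 ± 0.26 in combination (limma adjusted p = 6.12e-05) and by 3.18 ± 0.26 in disulfiram (adjusted p = 3.79e-05). MT1JP had 2.15, 1.59 and 1.18 TPM in combination, 3.59, 2.32 and 1.33 in disulfiram, 0.35, 0.33 and 0 in thalidomide and 0, 0.80 and 0 in control libraries. Its values with disulfiram lay above all those without it. MT1DP was at 0, 0 and 80.1 TPM in combination, 0, 6.73 and 39.9 in disulfiram and 0 in all thalidomide and control libraries.

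The metal sensor MTF1 had 3.65, 2.99 and 3.74 TPM in combination, 3.64, 2.32 and 3.16 in disulfiram, 1.97, 2.08 and 2.22 in thalidomide and 2.16, 2.36 and 2.33 in control libraries. All combination libraries lay above all controls. MTF1 rose by 0.44 ± 0.15 in combination (limma adjusted p = 0.0489), a call lost under median-of-ratios scaling, quantile normalization and the correction for GC content and without combination library 1 or 3 or any control library (adjusted p up to 0.156), and differed by 0.29 ± 0.15 in disulfiram (adjusted p = 0.236).

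Of 9 further SLC30 exporters, 6 were tested and 0 passed in the combination or in disulfiram against control. The most abundant of them, SLC30A5, which loads zinc into the secretory pathway, differed by 0.32 ± 0.18 in combination (limma adjusted p = 0.20) and 0.15 ± 0.18 in disulfiram (adjusted p = 0.658). Of 14 SLC39 importers, 12 were tested, and 1 rose and 2 fell in combination, beside 18.4% and 6.70% of all genes. SLC39A10, an importer of the plasma membrane, rose by 0.94 ± 0.26 in combination (8.25 ± 3.10 TPM against 3.67 ± 0.841 in control, SD, n = 3 each, limma adjusted p = 0.0249). SLC39A5 fell by 0.83 in combination (22.6 ± 3.29 against 41.4 ± 9.40 TPM in control, adjusted p = 0.00925) and SLC39A11 by 0.43 (adjusted p = 0.0249). In disulfiram against control SLC39A13, which supplies zinc from intracellular vesicles, was the 1 importer that rose (0.49 ± 0.13, limma adjusted p = 0.0314), and 0 fell, beside 8.73% and 4.52% of all genes. The SLC39A5 call held when any library was left out and was lost only with no filter on low values (adjusted p = 0.069). SLC39A10 lost its call without combination library 1 or 3 or control library 1 or 3 (adjusted p up to 0.105), SLC39A11 without combination library 1 or 3 or any control library (up to 0.104), and SLC39A13 without any 1 disulfiram library or control library 1 or 3 (up to 0.116). Medians of the importers tested were 0.04 in combination and 0.07 in disulfiram.

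Of 10 copper transporters and chaperones that also reached 1 TPM without disulfiram, 1 rose and 1 fell in combination (18.4% and 6.70% of all genes), and 1 rose and 1 fell in disulfiram (8.73% and 4.52% of all genes). CCS, the copper chaperone of superoxide dismutase, rose by 0.27 ± 0.07 in combination (limma adjusted p = 0.0227) and by 0.38 ± 0.07 in disulfiram (adjusted p = 0.00668). ATP7B, the copper exporter mutated in Wilson disease, fell by 0.47 in combination (limma adjusted p = 0.0186) and by 0.60 in disulfiram (adjusted p = 0.0087). ATP7A, another copper exporter, passed the filter only through libraries with disulfiram and averaged 1.15 TPM in combination, 0.947 in disulfiram, 0.447 in thalidomide and 0.427 in control. In combination the ATP7B call was lost without combination library 1 or 3 or control library 1 (adjusted p up to 0.0821) and that of CCS without combination library 3 or any control library (up to 0.0763). Under median-of-ratios scaling CCS passed in neither comparison (0.03 in combination and 0.25 in disulfiram).

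Of 14 stress genes that metals are known to induce and that also reached 1 TPM without disulfiram, 6 rose and 0 fell in each comparison with control, beside 18.4% of all genes that rose in combination and 8.73% in disulfiram. The chaperone genes HSPA8 and HSPB1 were not among them. HSPA8 averaged 653.3 ± 161 TPM in combination, 583.3 ± 83.3 in disulfiram and 746.3 ± 84.7 in control (SD, n = 3 each). HSPB1 averaged 1177 ± 54.0 TPM in combination, 1238 ± 228 in disulfiram and 1330.1 ± 112 in control (SD, n = 3 each). CRYAB, a small chaperone, averaged 308.4 ± 9.46 TPM in combination, 249 ± 105 in disulfiram and 2.14 ± 0.706 in control (SD, n = 3 each), a rise of 6.65 ± 0.26 and 6.25 ± 0.26 on the log2 scale (limma adjusted p = 5.05e-08 and 1.03e-07). HSPA6, an inducible Hsp70 with little basal expression, passed the filter only through libraries with disulfiram and averaged 62.5 ± 16.1 TPM in combination, 48.8 ± 8.41 in disulfiram, 0.133 ± 0.0513 in thalidomide and 0.103 ± 0.0306 in control (SD, n = 3 each). Against control GCLC passed only in combination and HMOX1 only in disulfiram. GCLM, SLC7A11, SRXN1, TXNRD1 and HSPH1 passed in neither of these comparisons. HSPA1A and HSPA1B, a pair of near-identical Hsp70 genes whose reads may be shared, both rose in each comparison. HSPA1A averaged 287.7 ± 55.9 TPM in combination, 250.2 ± 40.3 in disulfiram and 100.5 ± 17.2 in control (limma adjusted p = 0.00185 and 0.00392), and HSPA1B 187.4 ± 29.7 in combination, 177.6 ± 17.7 in disulfiram and 89.7 ± 13.1 in control.

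Of 11 protein-coding genes within 500 kb of the cluster, 8 were tested. In combination against control 0 rose and 1 fell, beside 18.4% and 6.70% of all genes, and in disulfiram 1 rose and 1 fell, beside 8.73% and 4.52%. HERPUD1, a factor of endoplasmic reticulum stress, fell by 0.47 in combination (limma adjusted p = 0.00512) and by 0.38 in disulfiram (adjusted p = 0.0182). NLRC5, an activator of MHC class I genes, rose by 0.84 ± 0.23 in disulfiram (limma adjusted p = 0.0349) at 2.58 TPM against 0.987 TPM in control. In disulfiram both calls were lost without disulfiram library 1 or 3 or control library 1 or 2 (adjusted p up to 0.120 for NLRC5 and 0.0761 for HERPUD1).

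The genes whose profile over the 12 libraries was most like the mean of the 7 metallothioneins expressed in control were S100A3, KPNA7, LTB and RND1, among 10473 candidates. Likeness is the root mean square difference of log2(TPM + 1) profiles, each set to its control mean, and was 0.263 for S100A3, a calcium- and zinc-binding protein. It was 0.315 for KPNA7, a nuclear import receptor, 0.324 for LTB, a cytokine, and 0.346 for RND1. S100A3 averaged 6.42 TPM in combination, 8.43 in disulfiram, 0.44 in thalidomide and 0.837 in control. Most like SLC30A1 were HIGD1A (0.0965), a mitochondrial protein, PLRG1 (0.125), a spliceosome component, MCPH1 (0.127) and RRN3 (0.134), a factor of RNA polymerase I. HIGD1A averaged 243.1 TPM in combination, 206.2 in disulfiram, 119.4 in thalidomide and 147.2 in control. Both sets of 4 depended on the processing. Of the 4 named for the metallothioneins, 2 were still among the closest 4 with an offset of 0.1 (LTB and RND1) and 2 with quantile normalization (S100A3 and RND1), and 3 with the correction for GC content. Of those named for SLC30A1, 3 were with an offset of 0.1, 2 with quantile normalization (RRN3 and MCPH1) and 1 with the correction for GC content (HIGD1A).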

How the data were processed

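The deposited table holds TPM per gene computed by the authors. The submitters' processing notes name HISAT2 2.0, StringTie 1.3.0 and the build hg38. Annotation, filters, library type and strand are not stated in the sources used. The labels' protocol describes dissociated tumour tissue and droplet libraries, which does not match 12 columns of a cell line. TPM keeps no count of reads, so depth and counting error are unknown. Of 58884 Ensembl identifiers in the table, 58611 are in GENCODE 29, from which symbols and positions were taken.

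From these values log2(TPM + 1) was computed for genes that reached 1 TPM in 3 or more libraries. Groups were compared with limma 3.58.1 (R 4.3.3), with its mean-variance trend, all 12 libraries in 1 fit, two-sided tests and Benjamini-Hochberg adjustment over all 15352 genes. Members, gene lists and rules were chosen with earlier results of these data known. Named were all 10 members, MTF1, up to 4 genes per list with the largest difference past the threshold (mean TPM of at least 1), or the most abundant where none passed, and the 4 genes closest to each profile (mean TPM of at least 5 in a group). Alternatives were another offset, filter, scaling, GC correction, array weights, fits of only the groups compared, a replicate block and leaving out each library.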

Additional observations from a re-analysis of the deposited data

How the results depend on the processing

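Of 25 differences of the 8 members past the threshold, 20 stayed past it under every alternative, and none changed sign. The 5 lost at least once were MT1E (disulfiram against control, combination against thalidomide), MT2A (combination against control), SLC30A1 (combination against thalidomide) and MT1X (disulfiram against thalidomide). Over the alternatives, 4 to 7 of the 8 members passed in combination against control, 5 to 6 in disulfiram against control, 5 to 8 in combination against thalidomide, 6 to 7 in disulfiram against thalidomide, and 0 in the others. The share of all genes past the threshold ran from 2.58% to 53.2% in combination against control and 1.72% to 25.3% in disulfiram against control. It ran from 3.24% to 49.1% in combination against thalidomide, 2.42% to 23.6% in disulfiram against thalidomide and 0% to 18.9% in combination against disulfiram. The upper ends of these shares, and the count of 8, come from array weights, whose estimation stopped before it converged. Without that setting they are, in the same order, 38.1%, 19.2%, 42.1%, 23.2% and 0.352%, and 7 members. Median-of-ratios scaling removed the shift of all genes: there 1213 genes rose and 2139 fell in combination (2823 and 1029 as deposited), and 704 rose and 1050 fell in disulfiram (1340 and 694). Among values that never passed, signs turned under median-of-ratios scaling for MT1X in combination against control (−0.12), MT1G in thalidomide against control (0.018, and 0.021 with quantile normalization) and MT1B in combination against disulfiram (−0.0029). With GC correction, with or without the replicate block, they turned for SLC30A5 in combination against control (−0.12) and SLC30A1 in combination against disulfiram (−0.21), and with array weights for MT1A in combination against disulfiram (0.033). Leaving out 1 library gave −0.13 to 0.27 for MT1X and 0.16 to 0.48 for SLC30A5 in combination against control, −0.37 to 0.052 for MT2A and −0.27 to 0.24 for MT1G in thalidomide against control, and −0.40 to 0.0082 for MT1A, 0.00060 to 0.22 for MT1B and −0.0063 to 0.42 for SLC30A1 in combination against disulfiram. The cause was not tested. Whether replicate numbers pair the libraries could not be told. Of 18 same-numbered pairs 4 correlated above 0.1 (range −0.15 to 0.37), and 6 of 12 libraries correlated best with their own number. The highest correlation was between combination library 2 and disulfiram library 2 (0.37). With the replicate block 5, 6, 7 and 6 of the 8 members passed in combination and disulfiram against control and in combination and disulfiram against thalidomide. Of the 15352 genes tested, 2629, 1168, 3604 and 1655 rose and 955, 618, 1028 and 729 fell in these fits. TPM gives no depth, so low values such as those of MT1H, SLC30A1 and MTF1 carry an unknown counting error.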

Other observations

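MT1IP, a further metallothionein pseudogene of the cluster that was looked up after its values were seen, had 7.72, 9.63 and 0 TPM in combination, 0, 9.53 and 2.37 in disulfiram and 0 in all thalidomide and control libraries. MT1DP and MT1IP were each listed at 0 in at least 1 library of the combination and of disulfiram. MT3 and MT4, the metallothioneins best known from brain and stratified epithelium, stayed near 0, with 2.17 TPM of MT4 in disulfiram library 3 as the highest value.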
